A study of Mus musculus with 12 samples.

Results

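The regions described here are 7 stretches of the mouse genome that hold families of repeated, closely related genes, and the measurement is the position of lysine crotonylation (Kcr) peaks within them. They were named as 11 bins of 1 Mb in GRCm38: 1 bin on chromosome 4 (61 to 62 Mb, major urinary protein or Mup genes), 3 on chromosome 4 (145 to 148 Mb, zinc finger genes), 2 on chromosome 5 (94 to 96 Mb, Pramel genes), 1 on chromosome 8 (20 to 21 Mb), 2 on chromosome 14 (42 to 44 Mb), 1 on chromosome 1 (85 to 86 Mb, Sp100 genes) and 1 on chromosome 7 (15 to 16 Mb, Obox genes). These are 11 of the 2666 bins of chromosomes 1 to 19, X and Y that hold a peak of either library. They were selected on the number of peaks they hold, so their high peak numbers are given as a description, with no test. The 28 bins within 2 Mb on either side served as flanks.

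The series holds 12 libraries, of which 2 are used here. Both are chromatin immunoprecipitation followed by sequencing (ChIP-seq) of dorsal hippocampus from C57BL/6J mice with the pan-Kcr antibody PTM BIO PTM-501, which binds crotonylated lysine whatever the protein. For the learning library the mice had gone through spatial object recognition training, and for the homecage library they had stayed in the home cage. The number of animals behind each library is not given. The 8 single-nucleus and 2 input libraries are not used here. With 1 library per condition there is no replicate check, and every comparison describes these libraries, not the conditions. The deposited lists hold peak positions without strengths or read numbers, so the depth behind a peak number is unknown. The intervals given below are exact 95% intervals for counting error only, and neighbouring peaks are not independent.

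Crotonylation is an acyl mark that is added to lysine from crotonyl-CoA, and on histones it is known for marking the start sites and enhancers of active genes. Multicopy clusters grow by repeated duplication, which leaves neighbouring genes with nearly the same sequence. Mup genes encode lipocalins that are made mainly in liver and carry pheromones into urine. Genes of the chromosome 4 zinc finger cluster encode C2H2 zinc finger proteins, a class that includes repressors of transposable elements. Pramel genes encode leucine-rich repeat proteins known from germ cells, Obox genes encode homeobox proteins of oocytes and early embryos, and alpha-defensins (Defa) are antimicrobial peptides of the intestine. Sp100, Sp110 and Sp140 are nuclear body proteins induced by interferon.

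Repeated sequence in the clusters was measured in the promoters without the use of peaks, but the sequences printed below were chosen partly by their peaks. RefSeq promoter windows of GRCm38.p6, 250 bases before to 50 bases after a gene's start, were cut into 270 overlapping words of 31 bases, and a promoter was called copied where another gene's window shared at least 100 of them. The first set shown is a pair of zinc finger copies, Zfp600 (chr4:146156577-146156826, plus strand) and Rex2 (chr4:147021600-147021849, plus strand), chosen because the learning list had a peak on the window of Zfp600 and none on that of Rex2. Capitals mark bases that lie in a 31-base word also found in the promoter of another gene of the same cluster.
Zfp600: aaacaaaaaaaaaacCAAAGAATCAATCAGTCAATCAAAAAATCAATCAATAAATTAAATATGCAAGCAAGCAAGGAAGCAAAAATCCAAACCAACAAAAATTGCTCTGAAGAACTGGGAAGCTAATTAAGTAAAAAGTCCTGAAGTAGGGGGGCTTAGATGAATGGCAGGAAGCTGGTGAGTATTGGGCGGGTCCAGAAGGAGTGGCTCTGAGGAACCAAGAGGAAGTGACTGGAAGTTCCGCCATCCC
Rex2: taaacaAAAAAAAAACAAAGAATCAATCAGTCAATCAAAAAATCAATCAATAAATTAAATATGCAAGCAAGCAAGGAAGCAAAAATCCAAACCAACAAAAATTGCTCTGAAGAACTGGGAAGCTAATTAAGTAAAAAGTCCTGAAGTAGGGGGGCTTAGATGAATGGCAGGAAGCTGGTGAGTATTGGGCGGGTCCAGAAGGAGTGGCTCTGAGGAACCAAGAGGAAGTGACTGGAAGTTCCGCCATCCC
The windows of these genes shared 255 words and differed at 4 of 300 positions when laid side by side without gaps. The genes start 865 kb apart.

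The next set holds 4 more zinc finger promoters on which a learning peak lay, Zfp988 (chr4:147305354-147305603, plus strand), Zfp985 (chr4:147553027-147553276, plus strand), Zfp979 (chr4:147642509-147642758, minus strand) and Zfp984 (chr4:147809789-147810038, minus strand), shown because they carried learning peaks and share words with other genes of the cluster.
Zfp988: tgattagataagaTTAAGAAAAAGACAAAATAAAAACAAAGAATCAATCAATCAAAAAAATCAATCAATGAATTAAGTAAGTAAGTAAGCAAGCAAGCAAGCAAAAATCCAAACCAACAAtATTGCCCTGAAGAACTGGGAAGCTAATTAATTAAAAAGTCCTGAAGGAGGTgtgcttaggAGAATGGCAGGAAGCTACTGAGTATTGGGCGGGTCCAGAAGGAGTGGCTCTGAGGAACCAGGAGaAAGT
Zfp985: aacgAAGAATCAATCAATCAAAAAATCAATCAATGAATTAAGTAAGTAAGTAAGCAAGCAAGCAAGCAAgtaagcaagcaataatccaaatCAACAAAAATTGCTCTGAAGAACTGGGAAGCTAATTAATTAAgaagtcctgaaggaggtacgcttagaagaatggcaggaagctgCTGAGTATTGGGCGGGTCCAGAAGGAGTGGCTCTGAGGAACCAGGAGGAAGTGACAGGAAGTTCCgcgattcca
Zfp979: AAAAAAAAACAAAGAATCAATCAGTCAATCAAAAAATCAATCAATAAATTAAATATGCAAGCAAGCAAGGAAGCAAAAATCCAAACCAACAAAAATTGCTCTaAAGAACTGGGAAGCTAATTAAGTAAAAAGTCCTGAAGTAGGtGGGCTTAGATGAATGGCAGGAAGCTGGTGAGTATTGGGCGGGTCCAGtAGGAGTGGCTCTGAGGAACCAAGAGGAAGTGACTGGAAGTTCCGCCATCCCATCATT
Zfp984: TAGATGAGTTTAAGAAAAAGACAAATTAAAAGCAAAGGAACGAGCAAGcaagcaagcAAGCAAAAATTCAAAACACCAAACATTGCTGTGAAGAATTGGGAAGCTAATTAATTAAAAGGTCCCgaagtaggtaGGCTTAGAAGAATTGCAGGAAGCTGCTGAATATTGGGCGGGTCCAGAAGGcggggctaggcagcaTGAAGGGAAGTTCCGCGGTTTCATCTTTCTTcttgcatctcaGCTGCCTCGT
Capitals make up 226 of the 250 bases in Zfp988, 172 in Zfp985, 247 in Zfp979 and 205 in Zfp984. The best match of each to a single gene was shorter, at 67 words in Zfp988, 37 in Zfp985, 140 in Zfp979 and 91 in Zfp984. Only Zfp979 of these 4 passed the limit for a copied promoter. Zfp981, which is not shown, also had a learning peak, over all 250 bases. It had 51 bases in capitals and a best match of 21 words.

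From the other clusters, Gm15319 of chromosome 8 (chr8:20363203-20363452, minus strand) is shown because its window was identical to that of Gm21119 (chr8:20614677-20614926, plus strand) while a learning peak lay on Gm15319 alone. Gm7609 of the Sp100 cluster (chr1:85199361-85199610, plus strand) and Mup-ps16 (chr4:61782836-61783085, plus strand) carried learning peaks on copied promoters. Mup15 (chr4:61439705-61439954, minus strand) and Gm46934 of the Pramel cluster (chr5:94777966-94778215, plus strand) are copied promoters on which neither list had a peak. Obox2 (chr7:15388601-15388850, plus strand) is a copied promoter with a homecage peak and no learning peak.
Gm15319: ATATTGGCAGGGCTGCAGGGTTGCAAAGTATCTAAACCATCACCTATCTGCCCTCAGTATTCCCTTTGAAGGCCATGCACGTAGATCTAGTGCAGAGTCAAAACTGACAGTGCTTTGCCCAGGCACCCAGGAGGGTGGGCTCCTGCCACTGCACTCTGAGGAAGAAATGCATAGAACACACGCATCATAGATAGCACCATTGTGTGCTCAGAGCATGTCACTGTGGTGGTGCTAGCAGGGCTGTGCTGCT
Gm7609: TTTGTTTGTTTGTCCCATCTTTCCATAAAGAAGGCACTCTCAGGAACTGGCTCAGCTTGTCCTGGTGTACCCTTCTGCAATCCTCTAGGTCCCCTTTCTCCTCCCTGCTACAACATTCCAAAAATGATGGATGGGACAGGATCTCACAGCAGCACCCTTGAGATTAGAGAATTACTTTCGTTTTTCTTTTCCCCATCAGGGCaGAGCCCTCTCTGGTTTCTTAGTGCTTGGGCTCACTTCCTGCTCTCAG
Mup-ps16: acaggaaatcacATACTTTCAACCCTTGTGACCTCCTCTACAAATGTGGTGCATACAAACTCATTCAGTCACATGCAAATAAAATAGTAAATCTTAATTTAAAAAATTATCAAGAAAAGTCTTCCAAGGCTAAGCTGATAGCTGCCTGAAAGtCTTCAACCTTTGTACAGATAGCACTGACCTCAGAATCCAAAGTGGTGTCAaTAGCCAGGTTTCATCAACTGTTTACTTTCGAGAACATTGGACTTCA
Mup15: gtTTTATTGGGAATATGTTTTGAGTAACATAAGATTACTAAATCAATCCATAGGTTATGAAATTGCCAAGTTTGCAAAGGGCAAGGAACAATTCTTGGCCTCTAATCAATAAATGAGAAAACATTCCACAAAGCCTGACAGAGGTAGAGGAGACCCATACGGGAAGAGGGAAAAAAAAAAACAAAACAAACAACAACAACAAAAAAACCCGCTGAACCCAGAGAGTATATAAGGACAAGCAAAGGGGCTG
Gm46934: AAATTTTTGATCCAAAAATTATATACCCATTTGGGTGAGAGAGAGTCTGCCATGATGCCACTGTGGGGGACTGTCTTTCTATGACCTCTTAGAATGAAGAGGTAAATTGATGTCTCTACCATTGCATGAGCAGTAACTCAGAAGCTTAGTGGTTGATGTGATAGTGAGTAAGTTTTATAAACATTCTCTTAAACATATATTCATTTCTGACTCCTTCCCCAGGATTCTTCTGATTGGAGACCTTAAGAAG
Obox2: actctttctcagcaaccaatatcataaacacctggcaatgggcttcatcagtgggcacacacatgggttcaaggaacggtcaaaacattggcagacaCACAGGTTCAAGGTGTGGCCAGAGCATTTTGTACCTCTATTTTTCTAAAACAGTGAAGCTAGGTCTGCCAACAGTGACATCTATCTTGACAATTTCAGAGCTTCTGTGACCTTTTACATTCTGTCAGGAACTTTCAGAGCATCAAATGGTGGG
The sequence printed for Gm15319 is in capitals throughout, and Gm21119 has the same letters. Of these 6 sequences, only Gm46934 holds the exact letters TATAAA, a form of the TATA box core. Mup15 holds the similar letters TATATAAG, closer to its start, which a search for TATAAA does not count. Where the letters lay within a window was not considered. Searched on both strands of the 250 bases before the start, TATAAA was found in 14.9% of the 168 promoter windows of the clusters and in 12.4% of all 32851 windows.

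Copied promoters made up a larger share of the genes in the clusters than around them. In the clusters 67 of 122 genes had a copied promoter (54.9%, interval 45.7 to 63.9), against 53 of 421 in the flanks (12.6%, interval 9.57 to 16.1) and 5.2% of all 27025 genes with a promoter entry. At a stricter limit of 200 words the shares were 23.8%, 7.13% and 3.03%. For 47 of the 67 the closest match lay in the same cluster, for 16 in its flanks, for 3 elsewhere on the same chromosome and for 1 on another chromosome. Among equally close matches the gene with the lowest gene number was taken. Gm15319 and Gm21119, identical to each other, were thus counted under the flanks through an equal match there. The share varied among the clusters. It was highest in the Pramel cluster (14 of 15 genes), the Mup cluster (7 of 8) and the chromosome 14 cluster (26 of 35), and lower in the Sp100 cluster (6 of 15), the zinc finger cluster (9 of 29), the Obox cluster (3 of 10) and the chromosome 8 cluster (2 of 10). The name multicopy therefore fits the promoters of some bins better than others. The zinc finger bin at 145 to 146 Mb had no copied promoter among 6 genes at this limit. Pseudogenes, the disabled copies of genes, numbered 13.5 per Mb in the clusters, 6.75 per Mb in the flanks and 3.98 per Mb over all bins.

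The clusters held 981 learning peaks, which is 6.13% of the 16002 learning peaks on these chromosomes in 0.413% of the bins, and 3211 homecage peaks, which is 0.969% of 331236. A cluster bin held 26 to 190 learning peaks with a median of 85, against a median of 6.5 in the flank bins and 5 over all bins. It held 256 to 400 homecage peaks with a median of 285, against 152.5 in the flank bins and 132 over all bins. Of all bins 2.06% held at least 4 times the median learning number and 1.16% held at least 1.5 times the median homecage number. All 11 cluster bins passed both limits, which the selection by peak number leads to, and 3 and 2 of the 28 flank bins passed them.

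The zinc finger cluster had the highest learning numbers. Its bins held 97, 129 and 190 learning peaks from 145 to 148 Mb, and the last of these was the highest of the 2666 bins. Its homecage numbers were 282, 286 and 400. The Sp100 bin ranked second for learning, with 135 learning and 296 homecage peaks. The chromosome 8 bin held 115 and 298, and the Obox bin 85 and 285. The lower clusters in the learning list were chromosome 14 (45 and 63 learning peaks, with 285 and 279 homecage peaks), Mup (57 with 267) and Pramel (39 and 26, with 277 and 256). Learning numbers therefore differed by 7.31 times between the highest and lowest cluster bin, and homecage numbers by 1.56 times. The bins are not marked off from all others by number. The lowest cluster bin, 95 to 96 Mb on chromosome 5 with 26 learning peaks, had the same number as the Mup flank bin at 60 to 61 Mb. Flank bins above it were 41 to 42 Mb on chromosome 14 with 53 and 19 to 20 Mb on chromosome 8 with 47.

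**Figure D1:**
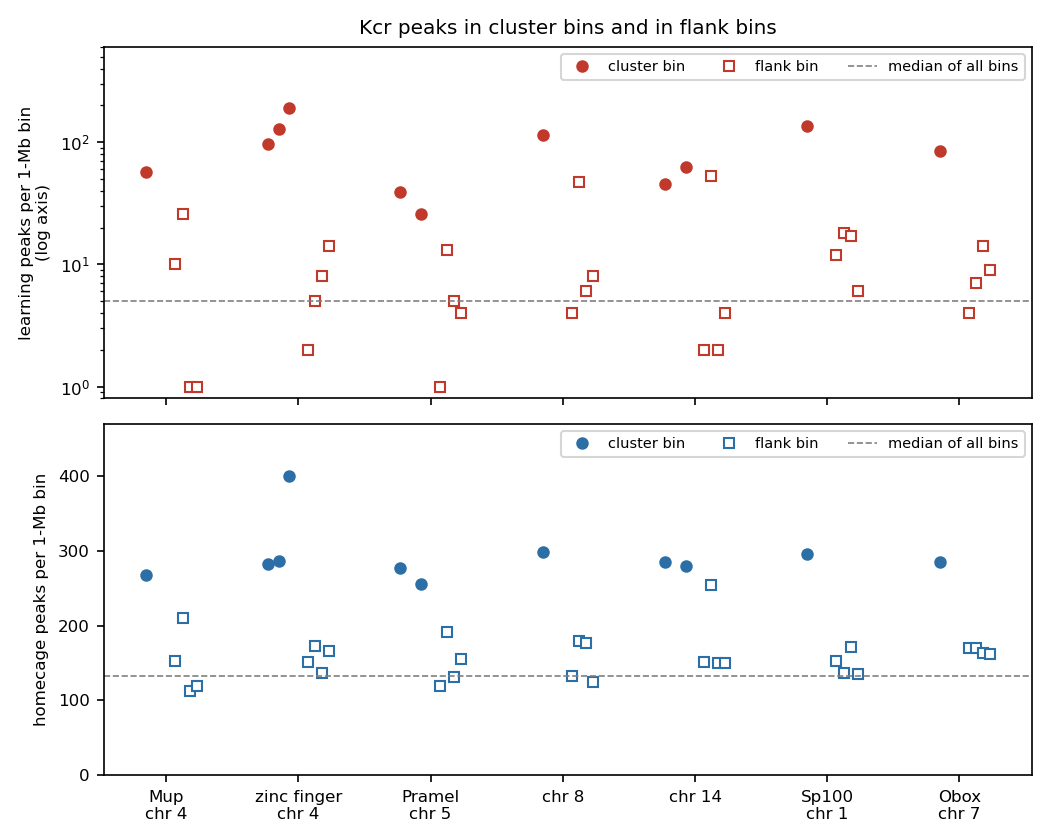
Number of Kcr peaks in each 1-Mb bin of the clusters (filled circles) and of their flanks (open squares), for the learning list on a log axis (top) and the homecage list on a linear axis (bottom), with the median of all bins as a dashed line. Cluster bins hold 26 to 190 learning and 256 to 400 homecage peaks, and single flank bins of the Mup, chromosome 8 and chromosome 14 clusters reach 26, 47 and 53 learning peaks.

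Per Mb, the clusters together held 89.2 learning peaks against 10.8 in the flanks, a ratio of 8.24 (interval 7.24 to 9.41). The homecage densities were 292 and 157 per Mb, a ratio of 1.86 (interval 1.78 to 1.95). By cluster, the learning ratio was 19.1 for zinc finger (interval 13.1 to 28.9), 10.2 for Sp100 (7.36 to 14.3), 10.0 for Obox (6.65 to 15.4), 7.08 for chromosome 8 (5.18 to 9.75), 6.00 for Mup (3.91 to 9.30), 5.65 for Pramel (3.47 to 9.53) and 3.54 for chromosome 14 (2.56 to 4.93). The intervals cover counting error and do not allow for the selection by peak number. The flanks also hold genes of these families, 14 of Mup and 24 of Pramel, so the ratios do not set a family against other genes. The homecage ratio ranged only from 1.60 for chromosome 14 to 2.06 for zinc finger. Leaving out the zinc finger cluster gave a learning ratio of 6.19 for the other clusters. The ratios grew with peaks of at least 500 bp alone, to 12.4 for learning and 3.05 for homecage, and by base pairs covered the homecage ratio was 2.81. They fell with peaks closer than 1 kb merged, to 7.66 for learning and 1.33 for homecage. Flanks of 1 Mb lowered them to 5.62 and 1.74.

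The number of homecage peaks per learning peak was 3.27 in the clusters (interval 3.05 to 3.52), 14.5 in the flanks (12.9 to 16.3) and 20.7 over the whole lists. It was 2.19 in the Sp100 cluster, 2.33 in zinc finger, 2.59 in chromosome 8, 3.35 in Obox, 4.68 in Mup, 5.22 in chromosome 14 and 8.20 in Pramel. Every cluster thus had fewer homecage peaks per learning peak than its own flanks, whose values ran from 9.43 on chromosome 8 to 25.9 around Pramel. The bins were selected on peak number, so these ratios carry that selection. Among peaks of at least 500 bp there were 5.05 homecage peaks per learning peak in the clusters.

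Within the bins the learning peaks were unevenly spread. In 100-kb windows, 47 of 110 cluster windows held at least 10 learning peaks, against 6 of 280 flank windows. To describe the spread, a stretch was taken in each cluster from the first to the last window with at least 5 learning peaks, so its higher learning number follows from how it was drawn. The zinc finger stretch ran from 145.4 to 147.8 Mb and held 409 of 416 learning peaks. Its edges were steep: the window at its start held 10 learning peaks after a window with 0, and the window after its end held 4. Its first protein-coding gene is Gm42346 and its last Zfp984.

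The Mup stretch, from 61.4 to 61.9 Mb, lay between Mup15 and Mup5, with 53 of 57 learning peaks. The window before it held 0 and the window after it 1. The Obox stretch was the shortest, from 15.1 to 15.5 Mb, with 77 of 85 learning peaks, and the windows on its sides held 1 and 2. Its 1 protein-coding gene, Obox2, starts near its far end, and the bin also has 32 pseudogenes. The other stretches began at the first edge of their bin and had no such edge there. The window before the Sp100 stretch (85.0 to 85.7 Mb, 132 of 135 learning peaks) held 13, and the window after it held 0. The windows before the chromosome 8, Pramel and chromosome 14 stretches held 12, 7 and 5 learning peaks, and those after them 3, 1 and 3.

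Homecage peaks, which did not draw the stretches, numbered between 29.1 per 100 kb in the Pramel stretch and 41.5 in the Obox stretch, against 13.0 to 19.8 in the other windows of the same bins. In 3 cluster windows, 1 in the Mup bin and 2 in the zinc finger bins, neither list had a peak. The positions of gaps in the assembly were not used here.

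**Figure D2:**
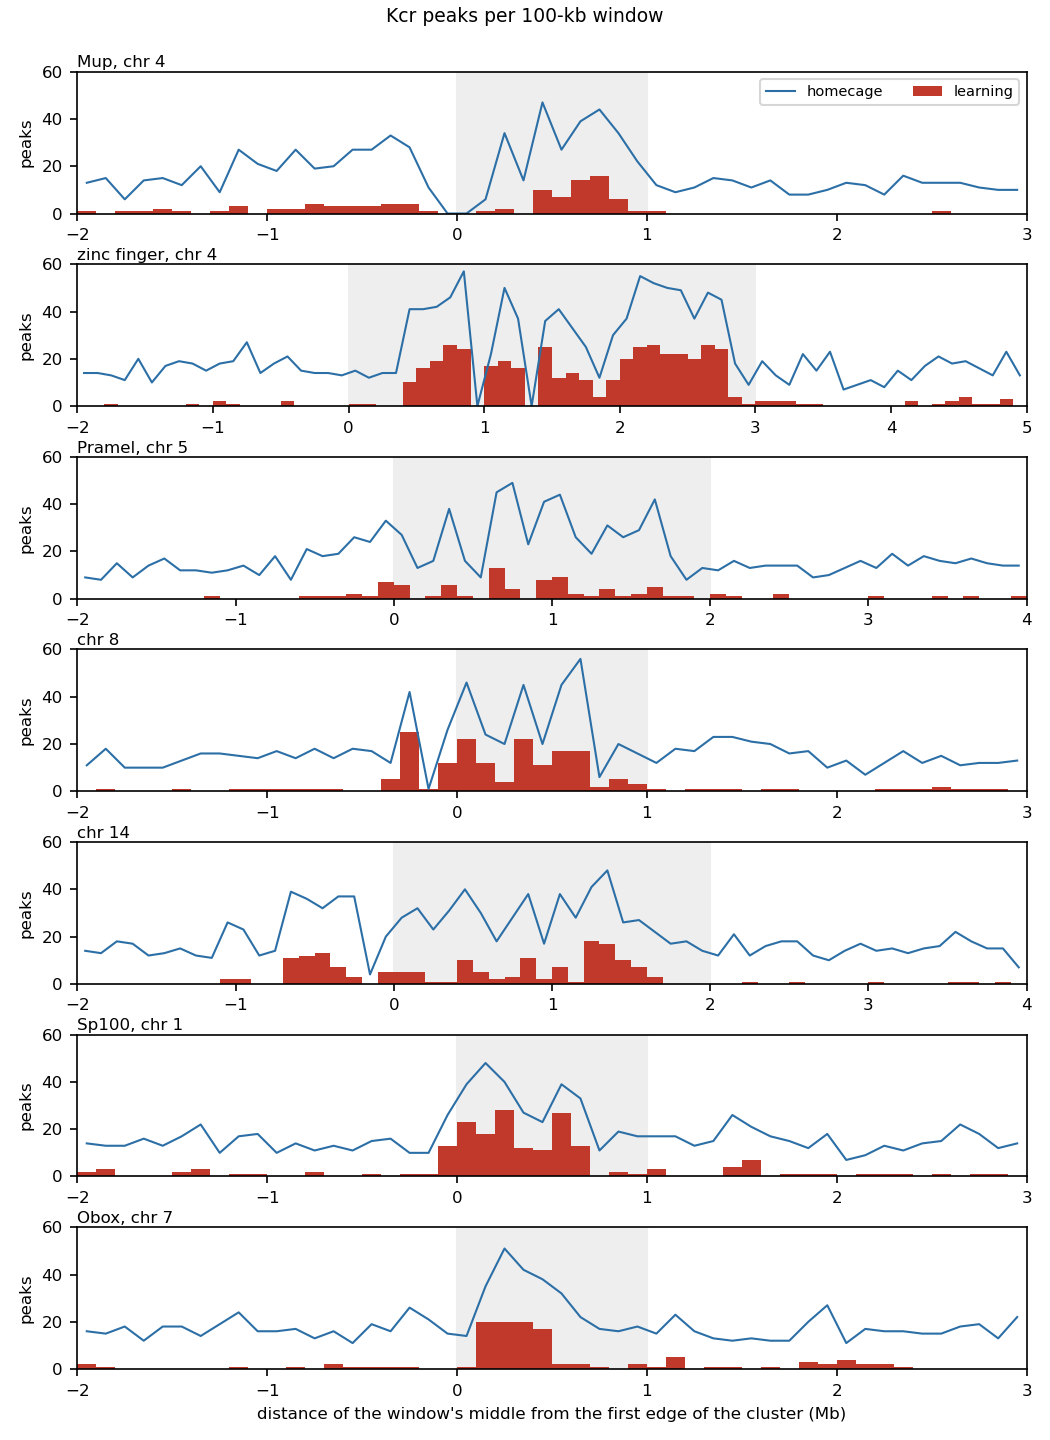
Peaks per 100-kb window across each cluster (grey) and its flanks, as learning bars and a homecage line, against the distance in Mb from the cluster's first edge. The zinc finger panel steps from 0 to 10 learning peaks at the start of its dense windows, and the chromosome 8 and chromosome 14 panels show dense windows in the left flank.

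Peaks in the clusters lay closer together and were somewhat wider. The median width of a learning peak was 363 bp in the clusters, 321 bp in the flanks and 306 bp in the whole list. The homecage medians were 458, 365 and 351 bp. The quartiles of learning widths were 235 and 531 bp in the clusters and 211.5 and 458 bp in the flanks, so the distributions overlapped widely. Homecage peaks covered 18.8% of the cluster bins, 6.66% of the flanks and 5.0% of all bins, while learning peaks covered 3.86%, 0.422% and 0.211%. The homecage coverage was 23.0% in the zinc finger cluster and 20.6% in the Sp100 cluster, and 14.7% in Pramel, the lowest.

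Learning peaks of the clusters overlapped a homecage peak more often than those elsewhere, and the homecage coverage was also higher there. Of the 981, 674 overlapped a homecage peak by at least 1 base (68.7%, interval 65.7 to 71.6), against 157 of 303 in the flanks (51.8%, interval 46.0 to 57.6) and 43.1% of the whole list. The share was 75.7% on chromosome 8, 75.6% in Sp100, 72.8% in zinc finger, 64.7% in Obox, 60.2% on chromosome 14, 52.3% in Pramel and 49.1% in Mup. For zinc finger the flanks had 34.5%, with an interval of 17.9 to 54.3 that did not reach the cluster's 68.3 to 77.1. For the other 6 clusters the interval overlapped that of their flanks, and on chromosome 14 the flanks had the higher share, 62.3%. The part of the difference that comes with the higher homecage coverage was not tested. Of the homecage peaks in the clusters, 20.0% overlapped a learning peak, against 3.53% in the flanks and 2.05% of the whole list. Close agreement of edges was less common: 16.8% of cluster learning peaks shared at least 50% of both widths with a homecage peak.

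**Figure D3:**
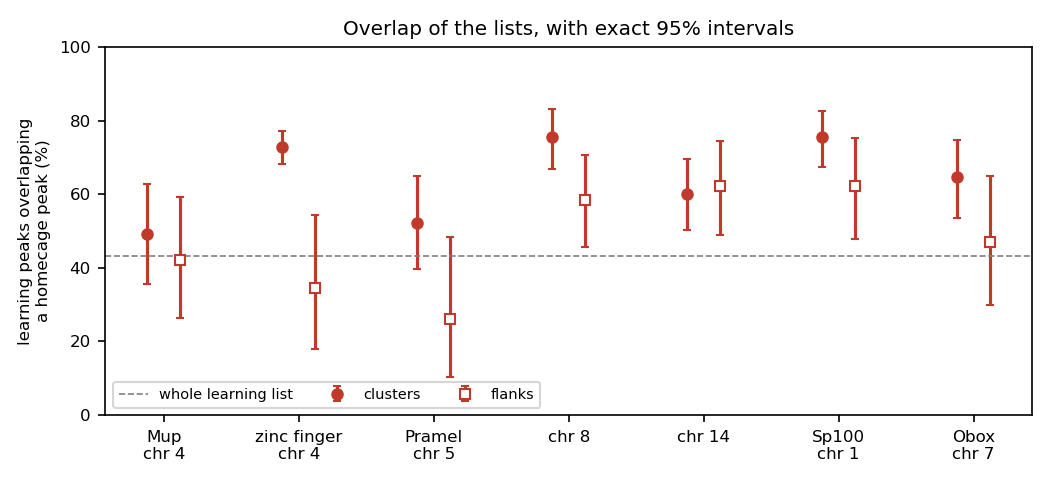
Share of learning peaks that overlap a homecage peak in each cluster (filled circles) and its flanks (open squares), with exact 95% intervals, and the share in the whole learning list as a dashed line. The clusters run from 49.1% in Mup to 75.7% on chromosome 8, and only for zinc finger do the intervals of cluster and flanks stay apart.

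Where the peaks lay relative to genes differed from cluster to cluster. In the Sp100 cluster 75.6% of learning peaks lay in the body of a protein-coding gene, in zinc finger 53.8% and on chromosome 14 42.6%. In Obox 76.5% lay outside every annotated gene, on chromosome 8 67.8%, in Mup 64.9% and in Pramel 58.5%. Pseudogenes alone took 29.2% of the Pramel learning peaks, 20.0% of those on chromosome 8 and 14.5% of all cluster learning peaks, against 4.62% in the flanks and 2.02% of the whole list. The higher pseudogene number given above goes with this. Of homecage peaks, 10.8% lay in pseudogenes alone in the clusters and 1.15% in the whole list.

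At gene ends, taken as the 1 kb before and after each end of a gene body, 34 of the 120 protein-coding genes of the clusters had a learning peak (28.3%, interval 20.5 to 37.3). The flanks had 54 of 405 (13.3%, interval 10.2 to 17.0), and 15.6% of all 21887 protein-coding genes had one. For the homecage list it was 97 of 120 (80.8%, interval 72.6 to 87.4), against 65.7% in the flanks and 60.9% of all. These counts rest on the peaks by whose number the bins were selected, so they are a description. The learning count came unevenly from the clusters. In the Sp100 cluster 10 of 13 genes had a learning peak at an end, and in zinc finger 11 of 28. On chromosome 14 it was 6 of 26, in Mup and in Obox 3 of 10 each, and on chromosome 8 1 of 7. In the Pramel cluster it was 0 of 26, where the interval allows up to 13.2%. Counting only peaks of at least 500 bp, the learning share was 11.7% in the clusters, 4.20% in the flanks and 3.82% of all genes, and the homecage share was 56.7%, 30.9% and 27.9%.

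Among the zinc finger genes, 17 carry a Zfp symbol or are Rex2, and 16 of them had a learning peak in the gene body, beside 24.8% of all protein-coding genes. All 17 had a homecage peak there, beside 76.9% of all. Their median length was 33.7 kb, against 17.2 kb over all protein-coding genes, and a longer gene has more room for a peak. Per 100 kb of gene body, the median over the 17 was 18.2 learning and 50.1 homecage peaks. Zfp992 had the highest learning density, 34.3 per 100 kb, from 7 learning peaks in 20.4 kb. Zfp979 followed with 29.4 and Zfp600 with 28.6. The largest number of peaks lay in Zfp978, with 66 learning and 145 homecage peaks in its 267 kb, or 24.7 and 54.3 per 100 kb. Zfp993, with 51 and 135 in 479 kb, had 10.7 and 28.2 per 100 kb. These models span other genes, Zfp991 and Zfp988 within Zfp978 and parts of Zfp981 and Rex2 within Zfp993, so their peaks are counted for more than 1 gene. Zfp933, the last gene of the family in genome order, had 0 learning peaks and 26.8 homecage peaks per 100 kb. At the first edge of the same bins, genes of other families had lower densities in both lists. Vps13d, a lipid transfer protein gene, had 0.62 learning and 14.2 homecage peaks per 100 kb, and Tnfrsf1b, a tumour necrosis factor receptor gene, had 0 and 14.5.

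In the Sp100 cluster all 3 family genes had learning peaks at an end and in the body, beside 15.6% and 24.8% of all protein-coding genes. Their median length was 57.5 kb, against 17.2 kb over all protein-coding genes, so these shares are not matched for length. Sp110 had 14 learning and 17 homecage peaks in 40.1 kb, or 34.9 and 42.4 per 100 kb. Sp140 had 12 and 22 in 57.5 kb, or 20.9 and 38.2 per 100 kb, and it overlaps Sp110. Sp100, at the end of the stretch, had 2 and 13 in 60.1 kb, or 3.33 and 21.6 per 100 kb. Learning density thus differed about 10.5 times between Sp110 and Sp100 and homecage density 1.96 times. The predicted gene models of the stretch lay between Sp100 and C130026I21Rik in learning density. Gm38510 held the most peaks, 38 learning and 66 homecage in 154 kb, or 24.7 and 42.9 per 100 kb. It contains C130026I21Rik, which had the highest learning density of the cluster, 38.5 per 100 kb, beside 40.9 for homecage peaks. Gm7592 had 35 and 60 in 229 kb, or 15.3 and 26.2 per 100 kb. Beyond Sp100, Cab39, a scaffold of the LKB1 kinase complex, had 1.72 learning peaks per 100 kb, and Gpr55, a G protein-coupled receptor gene, had 0. Itm2c, a membrane protein gene in the same part of the bin, had 1 learning peak in 14.2 kb, or 7.05 per 100 kb, and its 49.3 homecage peaks per 100 kb were the highest of the bin.

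**Figure D4:**
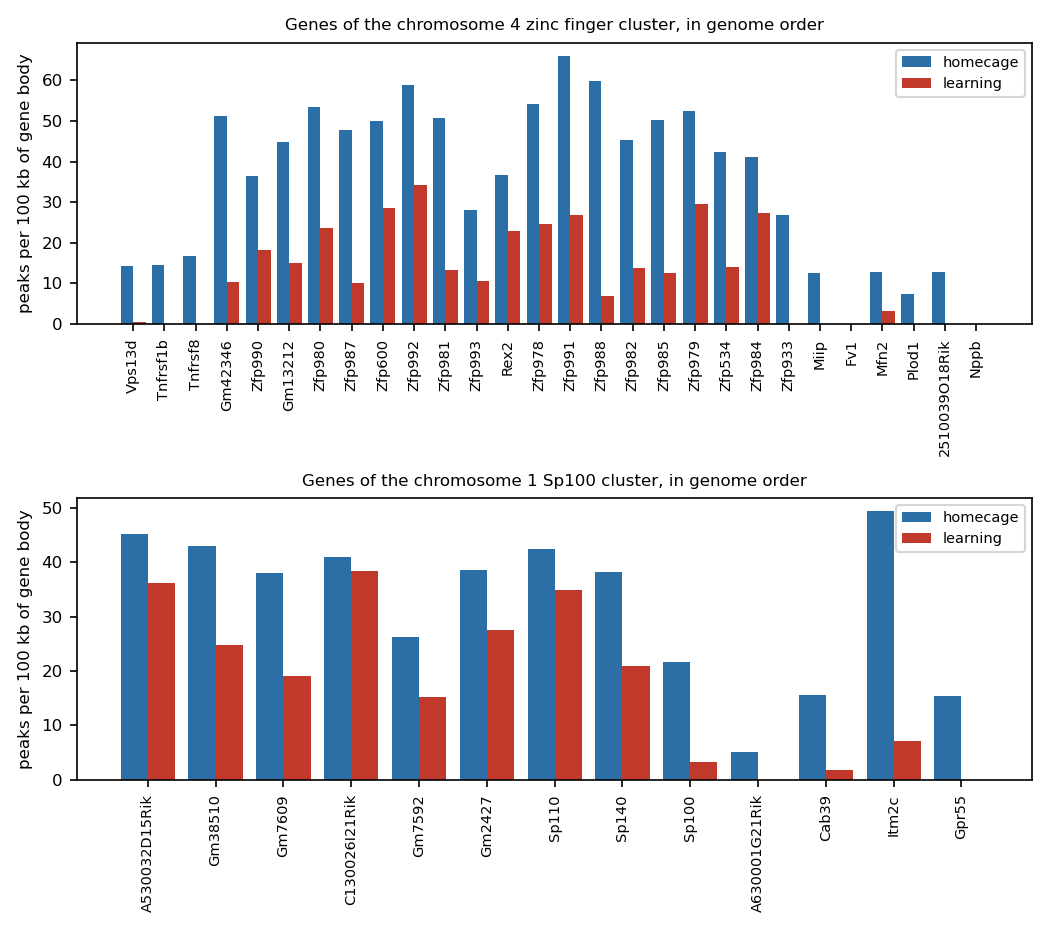
Learning and homecage peaks per 100 kb of gene body for each protein-coding gene of the zinc finger bins (top) and the Sp100 bin (bottom), in genome order, as bars from 0. Genes from Gm42346 to Zfp984 and from A530032D15Rik to Sp140 have learning peaks, and Zfp933 and Gpr55, at the edges, have none.

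Genes of the remaining families were shorter, with a median length of 4.04 kb for Mup, 8.18 kb for Pramel and 9.59 kb for Obox, so the shares of all genes given above, 24.8% and 76.9%, are not matched for length. Of 10 Mup genes, 4 had a learning peak in the body and 9 a homecage peak. Of the 16 learning and 72 homecage peaks counted in Mup gene bodies, most lay in Mup-ps12, listed as protein-coding in the gene table, with 10 learning and 41 homecage peaks in 97.9 kb (10.2 and 41.9 per 100 kb). Mup5 had 2 and 11 in 26.7 kb. The flanks held 14 more Mup genes, 2 with a learning peak in the body and 11 with a homecage peak. Of 14 Pramel genes, 1 had a learning peak in the body, Pramel47, with 3 learning and 10 homecage peaks in 37.7 kb, while 12 had a homecage peak. Gm6351 held the most homecage peaks of the Pramel cluster, 16 in 60.5 kb, with 2 learning peaks. The flanks held 24 more Pramel genes, 2 with a learning peak in the body and 17 with a homecage peak. Of 5 Obox genes, 2 had a learning peak, 1 each in Obox2 and Obox3, and all 5 had a homecage peak. Obox2 had 82.5 homecage peaks per 100 kb and Obox1 73.0. Ehd2, a membrane trafficking gene at the far edge of the Obox bin, had 1 learning and 6 homecage peaks.

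The chromosome 8 and chromosome 14 clusters are mostly made of predicted genes. On chromosome 8, Gm15319 had 7 learning and 11 homecage peaks in 25.5 kb, or 27.4 and 43.1 per 100 kb, and Gm21119 had 4 and 19 in 32.3 kb, or 12.4 and 58.7. Their order was thus opposite in the lists. Genes with a Defa or Defb symbol lay almost all outside the bin. Defb33, the 1 such gene inside, had no learning peak. Of 52 Defa and Defb genes in the flanks, 1 had a learning peak in the body and 18 a homecage peak. The median length of these 52 genes was 1.09 kb, and the shares over all genes were 24.8% and 76.9%. On chromosome 14, Gm21154 had 21 learning and 74 homecage peaks in 276 kb, or 7.60 and 26.8 per 100 kb, and contains 5 other genes. Gm2959 had 8 and 27 in 69.3 kb, or 11.5 and 38.9.

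The widest peaks fell on copies, pseudogenes or the space between genes. The widest learning peak of the clusters, 2794 bp at chr4:146167276-146170069, lay within Zfp600, and 3 homecage peaks covered 1696 bases of it. The widest homecage peak, 6301 bp at chr5:94996060-95002360, lay in the transcribed pseudogene Gm6367, and 2 learning peaks covered 625 bases of it. The widest homecage peak of the Obox cluster, 5994 bp at chr7:15404409-15410402, lay outside genes, 5864 bp from Obox2. On chromosome 14 a homecage peak of 5913 bp at chr14:43359646-43365558 overlapped the pseudogene Gm9597. In Sp100 the widest learning peak, 1937 bp at chr1:85008358-85010294, lay outside genes, 77845 bp before A530032D15Rik. In the Mup cluster the widest homecage peak, 3146 bp at chr4:61661749-61664894, had no learning peak on it, as did the widest learning peak of the Obox cluster, 976 bp at chr7:15242667-15243642, for the homecage list.

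On the promoter windows themselves, 13 of the 122 cluster genes had a learning peak (10.7%, interval 5.80 to 17.5) and 53 a homecage peak (43.4%, interval 34.5 to 52.7). Over all genes the shares were 4.51% and 19.3%, and in the flanks 4.75% and 20.4%. Of the 13 genes, 8 belong to the zinc finger cluster, 2 to Mup, 2 to Sp100 and 1 to chromosome 8. For the likeness classes, a gene with several windows was classed by its best-matching window, while a peak on any of its windows was counted. Class and peak can therefore come from different windows. Gm13165, classed as copied, and Mup-ps15, classed with some shared words, had learning peaks on windows with 0 capitals by the rule above. By likeness, 8 of the 67 genes with copied promoters had a learning peak, 5 of the 20 with some shared words, and 0 of the 35 with no shared word. Most of these 35 start outside the stretches described above, as do Cab39 and Gpr55 in Sp100 and Vps13d and Tnfrsf8 in zinc finger. Outside the stretch, learning peaks numbered 1.0 per 100 kb in Sp100 and 1.17 in zinc finger, against 18.9 and 17.0 within it. Likeness and position were not separated, and the part of each was not tested. The intervals of the copied and the unshared promoters, 5.30 to 22.2 and 0 to 10.0, overlapped. In the flanks 7.55% of copied promoters had a learning peak and 5.10% of those with no shared word. In the bins outside clusters and flanks the copied promoters had the lower share, 1.79% (interval 1.14 to 2.67) against 4.84% (4.57 to 5.12). The median number of CpG dinucleotides per window was 2 in copied and 5 in unshared promoters of the clusters, and 2 and 8 in the bins outside clusters and flanks.

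Beside the printed sequences, the learning peak at Zfp600 (chr4:146156718-146157003) covered 109 of the 250 bases and the homecage peak 88. At Rex2 a homecage peak covered 168 bases and there was no learning peak. At Gm15319 a learning peak of 1090 bp covered all 250 bases and a homecage peak 180. Its identical copy at Gm21119 had a homecage peak over 147 bases and no learning peak. The same letters therefore carried a called learning peak at 1 site and none at the other. Of the 21 pairs of cluster promoters in the same cluster that shared at least 200 words, 0 had a learning peak on both, these 2 pairs had it on 1, and 19 on neither. For homecage peaks it was both in 6 pairs, 1 in 5 and neither in 10. The pairs are not separate units, since a gene can be in several of them, as Pramel39 and Gm17027 are. Many of the pairs lie in the Pramel cluster, where no promoter window had a learning peak. How reads that match several copies were placed is not given in the sources used here, and reads from such copies cannot be told apart by sequence where the copies are identical, so the call at either copy is uncertain.

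Among the other printed promoters, the learning peak covered 178 bases at Zfp985, 128 at Zfp984, 78 at Zfp988 and 73 at Zfp979. Homecage peaks covered all 250 bases at Zfp985 and Zfp984. At Gm7609 the learning peak covered 226 bases and the homecage peak 69. At Mup-ps16 a learning peak covered 154 bases with no homecage peak there. At Obox2 a homecage peak covered all 250. The width of the learning peaks on the printed promoters ran from 251 bp at Zfp988 to 1090 bp at Gm15319.

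Repeated promoters were also common in other bins, most of which held fewer than 20 learning peaks. Among bins with at least 5 genes, at least 50% of the genes had a copied promoter in 6 cluster bins, 2 flank bins and 54 other bins. On the autosomes the other bins numbered 28 and held 0 to 110 learning peaks with a median of 7.5, and 5 of the 28 held 20 or more. Of all 2666 bins, 2.06% held 20 or more, and the medians over all bins were 5 learning and 132 homecage peaks. The 6 cluster bins held 26 to 129 with a median of 51. Homecage numbers were 20 to 462 with a median of 159 in the 28 and 256 to 286 with a median of 278 in the 6. The cluster bins were selected on peak number, so no more than the values is given. Bins rich in copied promoters thus ranged widely in learning peaks, and the reason was not tested. The flank bin at 21 to 22 Mb on chromosome 8, with 24 genes of which 14 had copied promoters and which holds alpha-defensin genes, held 6 learning and 177 homecage peaks, next to the cluster bin with 115 and 298. The bin at 11 to 12 Mb on chromosome 5, where all 18 genes had copied promoters, held 5 and 166. Of the 28, the bins with the most learning peaks were 22 to 23 Mb and 20 to 21 Mb on chromosome 7, with 110 and 63. These bins hold vomeronasal receptor genes, and their 462 and 409 homecage peaks were more than any cluster bin held.

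**Figure D5:**
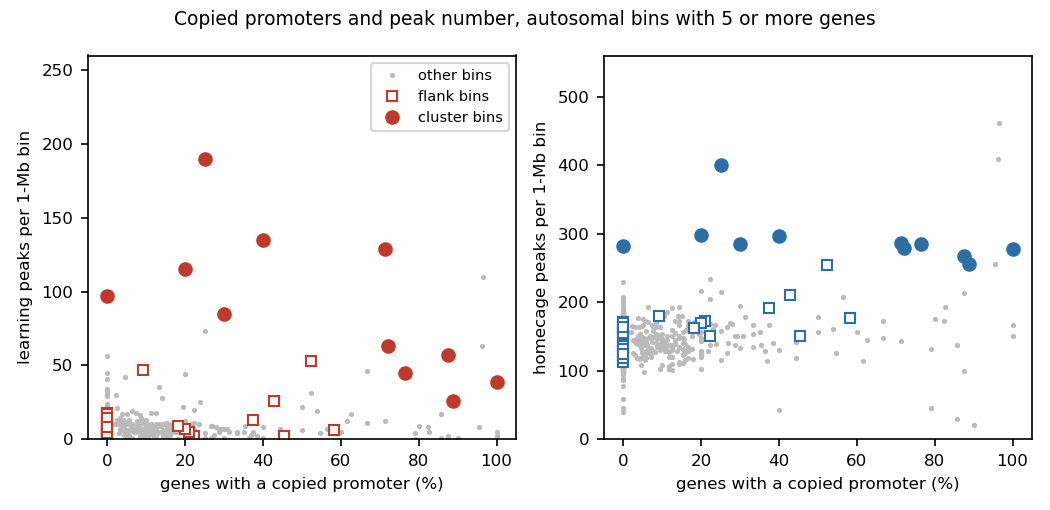
Learning (left) and homecage (right) peaks per 1-Mb bin against the percent of the bin's genes with a copied promoter, for autosomal bins with at least 5 genes, with cluster bins as filled circles, flank bins as open squares and other bins as grey points. Cluster bins lie at 0% to 100% on the horizontal axis, and most other bins above 50% hold fewer than 20 learning peaks.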

How the data were processed

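Per the labels, chromatin was crosslinked, sonicated to fragments of 200 to 500 bp and immunoprecipitated with a pan-Kcr antibody. Trimmomatic, BWA and MACS2 and the build mm10 are named in the submitters' processing notes, with no settings or versions. The authors deposited 1 list of broad peaks per library, called at p 0.01 according to the peak names. Its 4 columns hold the chromosome, start, end and name, so the measurements are positions (another unit than counts). Peak strengths, read totals, the use of the input libraries and the treatment of reads that match several places are not given in the sources used here. Peaks were treated as equal.

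Peaks were assigned to bins by their centre, with 1-based positions. Genes and promoter windows came from RefSeq tables of GRCm38.p6, the assembly of mm10. Of 120 protein-coding cluster genes, 91 had a promoter entry. Overlap meant at least 1 base. Intervals were exact Clopper-Pearson intervals for shares and exact conditional intervals for ratios of counts (scipy 1.17.1, Python 3.11.15). The interval, overlap and merging functions were tested on simulated lists. No test between libraries was made.

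Named genes were, in each cluster, the protein-coding gene with the most learning peaks in its body or within 1 kb, the 2 with the most homecage peaks, the widest peak of each list, and the named families by counts. Other genes, the printed promoters and the copied-promoter measure were chosen after the data were seen. The clusters and gene lists were chosen with earlier results of these data known. Families were found by symbol, and protein sequences were not used here.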

Additional observations from a re-analysis of the deposited data

Results flagged for a closer look

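Peaks on unlocalized sequences, which are assigned to a chromosome without a position, were outside the bins and entered no comparison. For the chromosomes of the clusters, such sequences of chromosome 1 carried 193 learning and 367 homecage peaks. Those of chromosome 4 carried 7 homecage peaks and those of chromosome 5 carried 357, and the learning list had 0 on both. They were picked out as peaks in data that the comparisons did not use. Which sequences belong next to the clusters was not tested.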

How the results depend on the processing

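Of 60 recomputed values, 34 stayed within the 95% interval of the main value and 26 moved outside it. With peaks closer than 1 kb merged, the homecage density ratio of clusters to flanks was 1.33, there were 2.38 homecage peaks per learning peak, and 73.3% of cluster learning peaks overlapped a homecage peak. With peaks of at least 500 bp, the learning ratio was 12.4, the homecage ratio 3.05, the homecage peaks per learning peak 5.05, the overlap 65.5%, and the share of genes with a peak at an end 11.7% for learning and 56.7% for homecage. Flanks of 1 Mb gave ratios of 5.62 for learning and 1.74 for homecage, and flanks of 5 Mb gave 10.5 and 1.99. By base pairs covered the homecage ratio was 2.81. Requiring 50% of both peaks lowered the overlap to 16.8%, and allowing a homecage peak within 1 kb raised it to 93.1%. Windows of 3 kb gave gene shares of 46.7% and 93.3%, and gene bodies 50% and 88.3%. Without the zinc finger cluster the learning ratio was 6.19 with 3.97 homecage peaks per learning peak, without chromosome 14 it was 9.62 with 3.03, and without Pramel there were 2.92. At 200 shared words, a limit chosen after seeing the data, 23.8% of cluster promoters were copied. The cause of these shifts was not tested. No replicate can be left out with 1 library per condition. No paired analysis was possible because the replicate numbers belong to the single-nucleus libraries, and each ChIP condition has 1 library. Unknown depth limits every peak number, and an absent peak does not show an absent mark.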
